A study of Drosophila melanogaster with 32 samples.

Results

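RNA recovered with GFP-tagged ribosomes was compared with whole-brain RNA of the same homogenates in Drosophila melanogaster larvae mutant for ato. Every library of the ato genotype was used and none of the wild type, which is 4 of the 8 libraries and 16 of the 32 sequencing runs of the series. The libraries were 2 inputs and 2 immunoprecipitations (IPs), and 9602 of 14161 genes had enough counts to be tested.

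All 4 libraries came from brains of larvae of instar 3 with the genotype ipcGal4, UASRpl10Ab::GFP; ato1, which the labels also give as ato loss of function. The flies were kept at 25 °C without treatment. Each preparation pooled 500 brains, of whose homogenate 10% became the input library and the remainder went to precipitation with anti-GFP. Inputs and IPs thus shared the driver, the tagged ribosomal protein and the mutation. The driver ipcGal4 decided which cells carried the tag, which the series gives as T4 and T5 neurons. The labels do not state which other cells the driver reaches, nor whether preparations 1 and 2 were raised apart, so p-values measure the spread between these samples. No precipitation from brains without the tag was analysed here, so RNA that came along without a tagged ribosome was not measured.

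Ribosomes that carry a tag in chosen cells bring down the messenger RNAs being translated there. The ratio of IP over input is meant to show which transcripts are more abundant on those ribosomes than in the whole tissue. T4 and T5 neurons detect the direction of motion in the adult fly. They arise in the larval optic lobe from progenitors of the inner proliferation center and are still growing their neurites at the end of larval life. The gene ato encodes the proneural basic helix-loop-helix factor Atonal, known for its role in founding photoreceptors and chordotonal organs and expressed in progenitors of these motion-detecting neurons.

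The inputs held 8193052 and 9887284 counts and the IPs 8086583 and 8084872. At least 1 count was found for 10850 and 10899 genes in the inputs and for 12533 and 11774 genes in the IPs, so the IPs detected more genes in both preparations. Levels are given as counts per 1000000 (CPM), on which scale 3 counts are worth 0.303 to 0.371, depending on the library. Across genes, log2 CPM correlated at 0.973 between the inputs and 0.969 between the IPs, where genes are not independent replicates. Values of preparation 1 stand before those of preparation 2 throughout, and log2 ratios are IP over input ± the standard error, from 2 libraries in each group. This error is taken from the paired edgeR fit, which shares its spread between genes. It does not measure how far the ratios of a gene's own 2 preparations lie apart.

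The transcript of ato stood at 15.4 and 14.9 CPM in the inputs and 13.3 and 11.1 CPM in the IPs, and its log2 ratio was -0.32 ± 0.33 (edgeR adjusted p = 0.49). The gene spans bases 4103514 to 4104996 of chromosome 3R (build dm3). Both IPs were below both inputs, by less than the test could separate from the spread. The allele is labelled a loss of function and the counts do not read the protein, so the transcript level does not check the genotype. RpL10Ab, the ribosomal protein gene whose count includes reads of the tagged copy, stood at 2497 and 2084 CPM in the inputs and 2656 and 3468 CPM in the IPs (0.41 ± 0.19, edgeR adjusted p = 0.0868). It was not called here, and it passed without input 1 (0.60, adjusted p = 0.00153), with upper-quartile factors (0.54, adjusted p = 0.0397), with run L1 alone (0.48, adjusted p = 0.0476), among genes of at least 10 CPM (0.51, adjusted p = 0.0315) and after a correction for exon length (0.72, adjusted p = 0.00191).

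Many transcripts differed between the IPs and the whole-brain inputs. In the paired edgeR fit 1424 of the 9602 genes tested were higher in the IP, which is 14.8%, and 1798 were lower, which is 18.7%. At least a 2-fold difference was seen for 801 of the higher and 757 of the lower genes, and 3210 of the 3222 calls had the same sign in both preparations. Both IPs lay above both inputs in 31.1% of the genes tested and below both in 33.7%. Groups without overlap, given for single genes below, were thus common among all genes. Counts of gene lists below stand beside the 14.8% higher and 18.7% lower of all genes. Calls that also held in each of the 4 fits without 1 library are named steady below: 345 genes were steadily higher (3.59%) and 714 steadily lower (7.44%).

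The counts changed when single libraries were left out and with the scaling. Each fit without 1 library also had no replicate block and kept 1 library in that group. A call lost there cannot be laid to the missing library alone. Without IP 1 there were 550 higher and 1014 lower genes, and without IP 2 there were 781 and 1086. Leaving out input 1 gave 1102 higher and 1142 lower genes. Upper-quartile factors moved the median of all genes by 0.13 and gave 1849 higher against 1397 lower, so that 57.0% of the calls were higher in place of 44.2%. A further fit offset the IPs by the trend of the ratio with the length of a gene's exons and is named the length correction below. It called 1013 genes higher (10.5%) and 1561 lower (16.3%). The rank correlation of ratio and exon length was 0.372 before this correction and 0.119 after it, so a weaker trend was left. The paired fit takes 1 spread for all genes at a given level, so a gene that varies more than most between preparations is called too easily.

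The widest differences upward were in transcripts barely present in the whole brain. CG33286 had no count in either input and 84 and 90 counts in the IPs, which is at least 64.7-fold higher against a floor of 3 counts over the inputs. CG32228 stood at 0.498 and 0.2 CPM in the inputs and 11.5 and 12.9 CPM in the IPs (5.13 ± 0.71, edgeR adjusted p = 2.48e-11). The microRNA gene bft, now mir-bft, stood at 2.49 and 2.90 CPM in the inputs and 26.39 and 27.6 CPM in the IPs (3.32 ± 0.37, edgeR adjusted p = 8.74e-17). CG14609 (3.84), zye (3.83), CG32192 (3.51) and CG14502 (3.14) were also among the 10 largest steady increases of genes that averaged at least 10 CPM in the IPs. The inputs of CG32228 rested on a few counts, and without input 1 its ratio was 5.88. The ratio of zye was 4.75 without input 2. With run L1 alone the ratios of bft, CG32192 and CG14502 were 4.45, 4.80 and 3.86. The DESeq2 Wald test did not call CG33286 (adjusted p = 0.0852), whose fitted ratio depends on the prior count. In all, 77 tested genes had no input count, and all 77 were called higher. They passed the filter on low counts through the IPs alone and had to differ.

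CG40155, on the heterochromatic scaffold of chromosome 3R, stood at 3.86 and 5.89 CPM in the inputs and 36.1 and 52.5 CPM in the IPs (3.18 ± 0.31, edgeR adjusted p = 3.26e-22). Its entry in the current annotation is Myo81F, a myosin gene, and 3 further entries of the table now belong to the same gene. These are CG15831 (3.12 ± 0.27, edgeR adjusted p = 5.11e-28), CG42621 (2.99 ± 0.37, edgeR adjusted p = 4.85e-14) and CG42624 (3.10 ± 0.98, edgeR adjusted p = 0.00715), named after their values were seen. The 4 fragments of this gene were thus all higher in the IP, by 2.99 to 3.18 on the log2 scale, and CG42624 was not called without IP 1 or input 1 (adjusted p = 0.181 and 0.0629). Its ratio was 2.44 without input 1 and 4.31 without input 2.

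The muscle titin-like genes bt and sls complete the 10, and they are described with the muscle markers below. By smallest p the highest genes were sls, bt, the nesprin gene Msp-300, the spectraplakin gene shot and CG14073, which stood at 42.4 and 33.9 CPM in the inputs and 327 and 176 CPM in the IPs (2.66 ± 0.21, edgeR adjusted p = 7.2e-35). By gain in CPM the first was the noncoding RNA noe, at 17255 and 15206 CPM in the inputs and 48143 and 37873 CPM in the IPs (1.398 ± 0.21, edgeR adjusted p = 2.04e-09). RpLP0, which encodes the stalk protein of the large ribosomal subunit, stood at 4077 and 3590.1 CPM in the inputs and 6833 and 6651 CPM in the IPs (0.82 ± 0.20, edgeR adjusted p = 0.000291). In these genes both IPs lay above both inputs.

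Downward the differences were narrower. Peritrophin-15b, a gene of the family of chitin-binding proteins, stood at 19.2 and 18.1 CPM in the inputs and 1.96 and 3.36 CPM in the IPs (-2.82 ± 0.42, edgeR adjusted p = 6.51e-10). CG6769 stood at 72.7 and 49.7 CPM in the inputs and 8.84 and 15.2 CPM in the IPs (-2.35 ± 0.27, edgeR adjusted p = 1.84e-16), and NHP2, which encodes a protein of the snoRNPs that guide pseudouridylation, at 315 and 219 CPM in the inputs and 62.6 and 64.1 CPM in the IPs (-2.05 ± 0.20, edgeR adjusted p = 2.91e-22). The 10 largest steady decreases further held CG6196 (now Trs33, -2.57), CG5084 (-2.42), CG31950 (-2.35), CG7181 (-2.23), CG17059 (-2.18), mRpL41 (-2.12) and mRpL34 (-2.08). Without input 1 the ratio of CG5084 was -1.73, and with run L1 alone that of CG6196 was -3.16. Exons of CG17059 overlapped those of another gene over 20.8% of their length, and counts without strand cannot tell such reads apart.

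Abundant transcripts led the losses in CPM. The replacement histone gene His4r stood at 3636 and 2895 CPM in the inputs and 875 and 814 CPM in the IPs (-1.94 ± 0.20, edgeR adjusted p = 4.87e-20). The small heat shock gene Hsp27 stood at 4392 and 3791 CPM in the inputs and 2209 and 1873 CPM in the IPs (-1.004 ± 0.20, edgeR adjusted p = 3.87e-06), and the cytoplasmic actin gene Act42A at 2943 and 2781 CPM in the inputs and 1040.4 and 1101 CPM in the IPs (-1.42 ± 0.19, edgeR adjusted p = 1.8e-11). Also lower were the cofilin gene tsr (-1.71 ± 0.19, edgeR adjusted p = 2.06e-16), the chromatin protein gene HmgD (-0.80 ± 0.19, edgeR adjusted p = 0.000245), the neuropeptide-like precursor gene Nplp2 (-2.05 ± 0.19, edgeR adjusted p = 1.51e-23) and regucalcin (-1.94 ± 0.19, edgeR adjusted p = 1.82e-21). The IPs of each of these genes lay below both inputs.

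**Figure D1:**
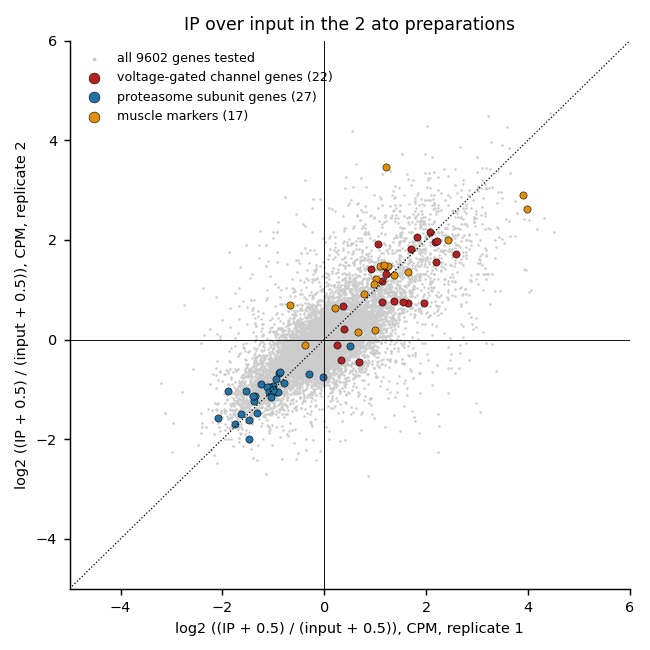
Log2 ratio of IP over input in preparation 1 (x axis) against preparation 2 (y axis), each from CPM plus 0.5, for the 9602 genes tested (grey points), with voltage-gated channel, proteasome subunit and muscle marker genes coloured. The dotted line marks equal ratios. Channel genes lie mostly in the upper right and proteasome genes in the lower left.

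The ratios of the preparations can be set against each other gene by gene, as the plot of both ratios shows. They correlated at 0.724 over all genes tested and at 0.791 over the 7265 genes with a mean of at least 10 CPM, where each ratio shares its own homogenate and depth. Of all genes tested, 2251 (23.4%) had opposite signs in the preparations, and 12 of these were called.

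Factors of T4 and T5 neuron identity were higher in the IP in part. Of the 10 transcription factor genes of the list, ato itself among them, 4 were called higher and none lower. These stand beside 14.8% and 18.7% of all genes tested. The median log2 ratio was 0.42 against -0.01 over all genes tested. Exons of the list had a median length of 3.82 kb, against 2.04 kb over all genes tested. After the length correction 1 member was higher and 1 lower, with a median of 0.26. The T-box gene bi, also known as optomotor-blind, stood at 79.2 and 89.9 CPM in the inputs and 185 and 146 CPM in the IPs (0.96 ± 0.20, edgeR adjusted p = 1.0e-05), and it was the only steady call of the list. The IPs of bi lay above both inputs, as in 31.1% of all genes tested. The nuclear factor gene dac stood at 50.8 and 43.9 CPM in the inputs and 91.6 and 80.97 CPM in the IPs (0.87 ± 0.21, edgeR adjusted p = 0.000282), also with no overlap between groups. It was not called without IP 1 (adjusted p = 0.0678) or after the correction for exon length (0.50, adjusted p = 0.0566).

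The GATA factor gene grn stood at 20.9 and 12.9 CPM in the inputs and 31.4 and 24.5 CPM in the IPs (0.75 ± 0.28, edgeR adjusted p = 0.0252) and Sox102F, a gene of the SoxD group, at 25.9 and 39.9 CPM in the inputs and 59.8 and 45.6 CPM in the IPs (0.69 ± 0.24, edgeR adjusted p = 0.0147). In both the IPs lay above both inputs, by a margin of a few CPM between the closest libraries. Without IP 1 neither was called (adjusted p = 0.361 for grn and 0.383 for Sox102F). The call of grn also ended without IP 2 (0.0622), without input 2 (0.419), without the replicate block (0.0782), with the DESeq2 Wald test (0.119), with run L1 alone (0.467) and with the length correction (0.127). That of Sox102F ended without input 1 (0.254), without the block (0.0574), under DESeq2 (0.0866) and after length correction (0.0663). The number of calls in the list was 1 without IP 1.

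The other members were not called. SoxN stood at 181 and 127 CPM in the inputs and 225 and 159 CPM in the IPs (0.32 ± 0.19, edgeR adjusted p = 0.184) and passed without input 1 (adjusted p = 0.0315). Its groups overlapped, with IP 2 below input 1. AP-2 stood at 63.4 and 67.2 CPM in the inputs and 51.2 and 52.2 CPM in the IPs (-0.34 ± 0.21, edgeR adjusted p = 0.224), and eya, which encodes a phosphatase and transcriptional coactivator, at 35.1 and 28.9 CPM in the inputs and 17.4 and 25.6 CPM in the IPs (-0.58 ± 0.27, edgeR adjusted p = 0.0791). For AP-2 and eya all IP values lay below all input values, as in 33.7% of all genes tested. After the length correction eya passed as lower (-0.72, adjusted p = 0.0315), as it did with run L1 alone (adjusted p = 0.0251). The POU factor gene acj6 stood at 7.72 and 5.09 CPM in the inputs and 7.98 and 7.71 CPM in the IPs (0.32 ± 0.48, edgeR adjusted p = 0.654), with IP 2 level with input 1. CG16778, now named lov, stood at 23.7 and 33.7 CPM in the inputs and 35.2 and 47.1 CPM in the IPs (0.53 ± 0.25, edgeR adjusted p = 0.0864) and passed without input 2 (adjusted p = 0.0483), with upper-quartile factors (0.0275) and among genes of at least 10 CPM (0.044).

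The gene tap, named after its values were seen, encodes a basic helix-loop-helix factor of the neurogenin family and was called at each of the 13 alternative settings. It stood at 90.5 and 90.6 CPM in the inputs and 377 and 487 CPM in the IPs, with a log2 ratio of 2.24 ± 0.19 (edgeR adjusted p = 5.11e-28). Both IPs were far above both inputs, and the inputs were level with each other. With the length correction its ratio was 2.24.

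Genes of the temporal series and of progenitors in the inner proliferation center were called about as often as all genes tested. Of 19 members 2 were higher and 4 lower, beside 14.8% and 18.7% of all genes, with a median of -0.18. The zinc finger gene klu stood at 47.4 and 45.8 CPM in the inputs and 150.3 and 154 CPM in the IPs (1.71 ± 0.20, edgeR adjusted p = 6.78e-15). The Sox gene D, expressed in progenitors, stood at 244 and 210.4 CPM in the inputs and 86.4 and 81.7 CPM in the IPs (-1.43 ± 0.19, edgeR adjusted p = 1.0e-11), the reverse order of klu. The homeobox gene hth stood at 507 and 472 CPM in the inputs and 1007 and 895 CPM in the IPs (0.96 ± 0.19, edgeR adjusted p = 4.05e-06) and was not called with the length correction (0.36, adjusted p = 0.137). The count of lower members was 1 without IP 1, 2 without IP 2, 2 without input 1 and 1 without input 2.

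**Figure D2:**
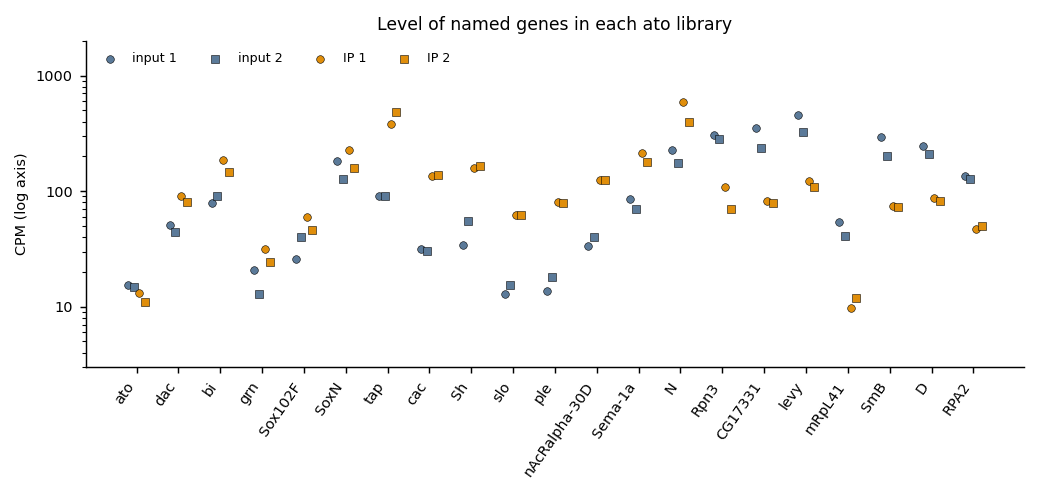
CPM on a log axis of named genes in each of the 4 libraries, inputs in blue and IPs in orange, with circles for preparation 1 and squares for preparation 2. The values of tap, cac, Sh, slo and ple separate upward from input to IP, those of the proteasome genes Rpn3 and CG17331 and of levy, mRpL41, SmB, D and RPA2 separate downward, and those of ato lie within 11.1 to 15.4.

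Ion channels of neuronal excitability were mostly higher in the IP. Of 22 voltage-gated channel genes 17 were higher and none lower, with a median of 1.26, and 13 were steady. The presynaptic calcium channel gene cac stood at 31.7 and 30.3 CPM in the inputs and 135 and 137 CPM in the IPs (2.13 ± 0.21, edgeR adjusted p = 2.32e-21). The Shaker potassium channel gene Sh stood at 33.9 and 55.6 CPM in the inputs and 157 and 164 CPM in the IPs (1.88 ± 0.20, edgeR adjusted p = 1.43e-17), and the calcium-activated potassium channel gene slo at 12.9 and 15.4 CPM in the inputs and 61.6 and 61.7 CPM in the IPs (2.12 ± 0.26, edgeR adjusted p = 1.61e-14). Every IP value of these genes lay above both inputs, and for cac and slo the preparations were alike. SK, another calcium-activated potassium channel gene, stood at 24.4 and 22.6 CPM in the inputs and 81.03 and 81.3 CPM in the IPs (1.79 ± 0.23, edgeR adjusted p = 5.68e-13), and the sodium channel gene para, named after its values were seen, at 7.72 and 11.3 CPM in the inputs and 36.7 and 45.4 CPM in the IPs (2.12 ± 0.29, edgeR adjusted p = 7.68e-12). After length correction the list's median was 0.90, 13 members were higher, and the ratio of cac was 1.46.

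Transmitter receptors followed the same direction. Of 27 tested among 29 receptor genes 14 were higher and none lower, with a median of 0.85, and the count was 9 without IP 2. Nicotinic acetylcholine receptor subunits were among the steady calls. The subunit gene nAcRalpha-30D stood at 33.7 and 40.3 CPM in the inputs and 125 and 124 CPM in the IPs (1.75 ± 0.21, edgeR adjusted p = 5.66e-15), gfA at 42.7 and 36.3 CPM in the inputs and 128 and 127 CPM in the IPs (1.70 ± 0.21, edgeR adjusted p = 2.88e-14) and nAcRalpha-34E at 20.4 and 28.7 CPM in the inputs and 88.4 and 72.6 CPM in the IPs (1.72 ± 0.23, edgeR adjusted p = 5.57e-12). Their current names are nAChRalpha6, nAChRalpha7 and nAChRalpha5. Rdl, which encodes a receptor for the inhibitory transmitter GABA, stood at 8.84 and 9.39 CPM in the inputs and 34.7 and 32.96 CPM in the IPs (1.89 ± 0.30, edgeR adjusted p = 5.18e-09). In these receptor genes the groups did not overlap, and their length-corrected ratios were 1.56, 1.49, 1.49 and 1.86.

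Synaptic vesicle and active zone genes were mixed. Of 21 tested among 23 genes 9 were higher and none lower, with a median of 0.35. The active zone scaffold gene Rim stood at 23.03 and 25.1 CPM in the inputs and 77.7 and 73.6 CPM in the IPs (1.65 ± 0.23, edgeR adjusted p = 5.27e-11) and the calcium sensor gene Syt1 at 64.7 and 94.6 CPM in the inputs and 161 and 153 CPM in the IPs (1.002 ± 0.20, edgeR adjusted p = 5.0e-06). The priming factor gene unc-13 stood at 321 and 331 CPM in the inputs and 852 and 682 CPM in the IPs (1.23 ± 0.19, edgeR adjusted p = 1.79e-09), while its length-corrected ratio was 0.03 (adjusted p = 0.933). The number of higher genes was 4 without IP 2, and 2 members were called lower without input 1. The length correction left 5 higher and 2 lower, and the ratio of Rim was 0.87.

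Of 15 genes for the synthesis and transport of transmitters 7 were higher and none lower, with a median of 0.64. The count was 2 without IP 2 and 4 without input 1. The tyrosine hydroxylase gene ple, the first step to dopamine, stood at 13.6 and 18.2 CPM in the inputs and 80.3 and 78.2 CPM in the IPs (2.33 ± 0.24, edgeR adjusted p = 3.75e-19), with a length-corrected ratio of 2.17. Its IP values were level with each other and far above both inputs. Over the list the length correction left 3 genes higher and none lower, with a median of 0.36. The vesicular acetylcholine transporter gene VAChT stood at 45.4 and 72.9 CPM in the inputs and 107 and 114 CPM in the IPs (0.93 ± 0.20, edgeR adjusted p = 4.1e-05) and was not called with the length correction (adjusted p = 0.127). The vesicular glutamate transporter gene VGlut, the most abundant of the list, stood at 111 and 179 CPM in the inputs and 177 and 272 CPM in the IPs (0.64 ± 0.19, edgeR adjusted p = 0.0037), where IP 1 lay below input 2. Its call ended without IP 2 (adjusted p = 0.577), without input 1 (0.236), without the block (0.0551) and with the length correction (0.265).

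General neuron markers had 5 of 10 genes higher, none lower and a median of 0.60, and the count was 2 without IP 1, 2 without IP 2 and 3 without input 1. After the length correction 2 neuron markers were higher and none lower, with a median of 0.18. The pan-neuronal RNA-binding gene elav was named after its values were seen. It stood at 342 and 326 CPM in the inputs and 392 and 373 CPM in the IPs (0.20 ± 0.18, edgeR adjusted p = 0.429) and was not called. Its relative fne stood at 454 and 470.0 CPM in the inputs and 701 and 758 CPM in the IPs (0.66 ± 0.18, edgeR adjusted p = 0.00205) and was not called without IP 1 (0.0677) or IP 2 (0.127). Of 18 tested genes for neuronal RNA-binding proteins 7 were higher and 1 lower, with a median of 0.45. The higher count was 2 without IP 1, and the lower call ended without IP 1, IP 2 or input 2. The translational repressor gene pum stood at 99.7 and 91.8 CPM in the inputs and 307 and 254 CPM in the IPs (1.54 ± 0.19, edgeR adjusted p = 9.31e-14) and the splicing factor gene bru-3 at 80.3 and 81.4 CPM in the inputs and 162 and 144 CPM in the IPs (0.92 ± 0.20, edgeR adjusted p = 2.87e-05). The groups of pum and bru-3 did not overlap. With the length correction 3 genes of the RNA-binding list were higher and 1 lower, with a median of 0.18. Hrb27C, the most abundant member, stood at 1529.5 and 1564 CPM in the inputs and 1326 and 1349 CPM in the IPs (-0.21 ± 0.19, edgeR adjusted p = 0.415).

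Genes that wire neurons together were often higher, and their exons were long. Of 36 adhesion and teneurin genes 22 were higher and 1 lower, with a median of 0.69. The teneurin gene Ten-a stood at 78.1 and 61.2 CPM in the inputs and 226 and 162 CPM in the IPs (1.47 ± 0.20, edgeR adjusted p = 6.4e-12), and Ten-m at 126 and 98.9 CPM in the inputs and 304 and 203 CPM in the IPs (1.16 ± 0.19, edgeR adjusted p = 3.05e-08). The N-cadherin gene CadN stood at 58.01 and 51.9 CPM in the inputs and 146 and 109 CPM in the IPs (1.20 ± 0.20, edgeR adjusted p = 7.1e-08), and the atypical cadherin gene kug at 52.3 and 40.7 CPM in the inputs and 133 and 99.6 CPM in the IPs (1.32 ± 0.20, edgeR adjusted p = 3.69e-09). Both IPs of each lay above both inputs. Exons of the list had a median length of 5.78 kb, against 2.04 kb over all genes tested. After the length correction 6 members were higher and 2 lower, the median was 0.17, and Ten-a was still called (0.51, adjusted p = 0.0337) while Ten-m, CadN and kug were not (adjusted p = 0.479, 0.158 and 0.451). The list's count of higher genes was 9 without IP 1, and its lower call ended without any 1 of the 4 libraries.

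Of 31 axon guidance genes 14 were higher and 1 lower, with a median of 0.50, and the count of higher genes was 5 without IP 1, 9 without IP 2 and 9 without input 1. The transmembrane semaphorin gene Sema-1a stood at 85.8 and 70.5 CPM in the inputs and 216 and 177 CPM in the IPs (1.33 ± 0.19, edgeR adjusted p = 3.8e-10). The receptor phosphatase gene Lar stood at 47.1 and 62.7 CPM in the inputs and 117 and 106 CPM in the IPs (1.03 ± 0.20, edgeR adjusted p = 5.52e-06). The adaptor gene dock, the lower member, stood at 374 and 418 CPM in the inputs and 199 and 244 CPM in the IPs (-0.84 ± 0.18, edgeR adjusted p = 4.15e-05) and was not called without IP 1 (adjusted p = 0.0788). Once corrected for length 4 were higher and 2 lower, among the former Sema-1a (0.57, adjusted p = 0.0153), while Lar was not called (adjusted p = 0.133).

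The cell surface immunoglobulin families dpr, DIP, beat and side, whose members bind each other in pairs at synapses, had 19 of 44 genes higher and none lower, with a median of 0.48. Here the length correction changed little: the median was 0.49 and 14 were higher. The count was 7 without IP 1, 6 without IP 2, 8 without input 1 and 10 without input 2, and 3 were steady. CG32791, now DIP-alpha, stood at 3.61 and 6.99 CPM in the inputs and 22.8 and 23.8 CPM in the IPs (2.17 ± 0.35, edgeR adjusted p = 1.74e-08). The gene dpr6 stood at 6.10 and 8.59 CPM in the inputs and 26.1 and 28.11 CPM in the IPs (1.89 ± 0.32, edgeR adjusted p = 7.49e-08) and dpr8 at 36.7 and 30.3 CPM in the inputs and 74.4 and 61.3 CPM in the IPs (1.02 ± 0.23, edgeR adjusted p = 6.09e-05). No IP value of these 3 genes reached down to the inputs. The most abundant member, dpr7, stood at 76.6 and 70.5 CPM in the inputs and 73.4 and 110.0 CPM in the IPs (0.29 ± 0.20, edgeR adjusted p = 0.265) and had a ratio of -0.02 without IP 2. Its IP 1 value lay between the inputs.

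**Figure D3:**
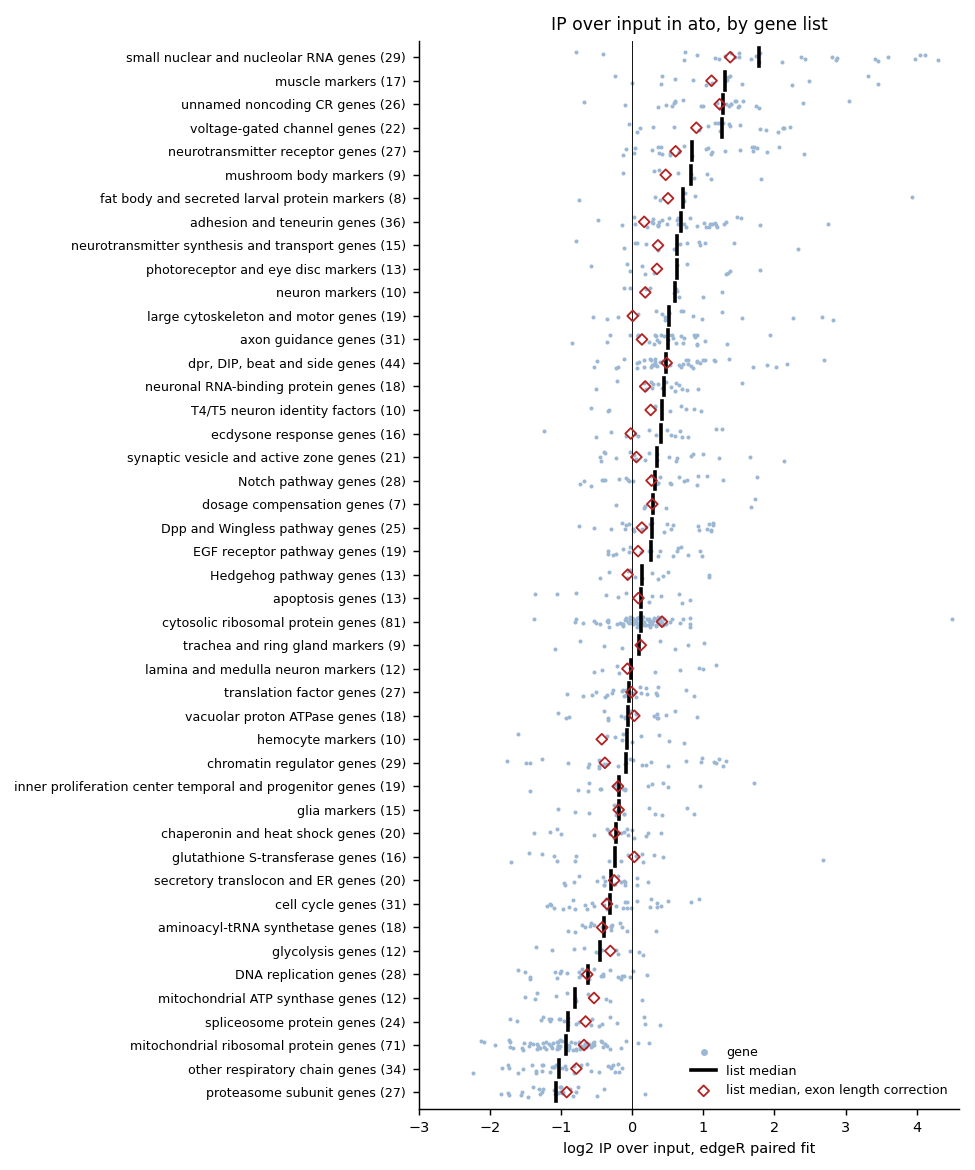
Log2 ratio of IP over input from the paired edgeR fit for each tested gene of 45 lists (blue points, number of genes in brackets), with the list median (black bar) and the median after the exon length correction (red diamond), ordered by median. Proteasome genes have the lowest median at -1.07 and voltage-gated channel genes a median of 1.26. The diamond of the large cytoskeleton list lies below its bar and that of the cytosolic ribosomal protein list above it.

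The signalling pathways were described one by one. Of 28 Notch pathway genes 7 were higher and 2 lower, with a median of 0.33. The receptor gene N stood at 226 and 177 CPM in the inputs and 587 and 396 CPM in the IPs (1.27 ± 0.19, edgeR adjusted p = 3.1e-10), and the metalloprotease gene kuz, whose product cleaves the receptor, at 73.1 and 75.3 CPM in the inputs and 183 and 130.4 CPM in the IPs (1.06 ± 0.20, edgeR adjusted p = 1.43e-06). Neither gene's groups overlapped. After the length correction both were called, at 0.46 for N and 0.69 for kuz. The 2 lower calls were lost without IP 1, IP 2 or input 1, and 1 was left without input 2.

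Of 25 genes of the Dpp and Wingless pathways 11 were higher and 2 lower, with a median of 0.28. The TCF factor gene pan stood at 107 and 106 CPM in the inputs and 246 and 213 CPM in the IPs (1.10 ± 0.19, edgeR adjusted p = 1.68e-07), the Wingless antagonist gene nkd at 63.2 and 72.4 CPM in the inputs and 164 and 121 CPM in the IPs (1.06 ± 0.20, edgeR adjusted p = 1.76e-06) and the receptor gene fz2 at 38.8 and 27.9 CPM in the inputs and 84.6 and 61.4 CPM in the IPs (1.13 ± 0.22, edgeR adjusted p = 5.39e-06). The Dpp pathway factor gene shn stood at 37.5 and 33.4 CPM in the inputs and 83.8 and 66.7 CPM in the IPs (1.08 ± 0.22, edgeR adjusted p = 1.11e-05) and was not called with the length correction (adjusted p = 0.391). The beta-catenin gene arm went the other way, at 562 and 684 CPM in the inputs and 432 and 420.0 CPM in the IPs (-0.54 ± 0.18, edgeR adjusted p = 0.0131). Its call ended without IP 1 (adjusted p = 0.165), without IP 2 (0.187), without input 2 (0.0952), with upper-quartile factors (0.088) and with run L1 alone (0.0803). The higher count of the list was 7 without IP 2, the lower count 0 without IP 1, 1 without IP 2 and 1 without input 2.

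Of 19 EGF receptor pathway genes 5 were higher and none lower, with a median of 0.26, and the higher count was 2 without IP 1, 3 without IP 2 and 3 without input 1. The ligand-processing protease gene rho stood at 36.3 and 41.5 CPM in the inputs and 78.9 and 74.8 CPM in the IPs (0.98 ± 0.22, edgeR adjusted p = 5.53e-05), and Ras85D, the most abundant member, at 281 and 275 CPM in the inputs and 212 and 227 CPM in the IPs (-0.34 ± 0.18, edgeR adjusted p = 0.138). Of 13 Hedgehog pathway genes 2 were higher, close to the 14.8% of all genes, and none lower, with a median of 0.14, and the count was 1 without IP 1. The glypican gene dally stood at 62.1 and 52.4 CPM in the inputs and 142 and 103 CPM in the IPs (1.08 ± 0.20, edgeR adjusted p = 1.25e-06) with no overlap between groups. The pathway's transcription factor gene ci stood at 145 and 192 CPM in the inputs and 221 and 209 CPM in the IPs (0.36 ± 0.19, edgeR adjusted p = 0.123), and its length-corrected ratio was -0.00. It passed as higher with upper-quartile factors (adjusted p = 0.0314) and among genes of at least 10 CPM (0.032). Among ecdysone response genes 6 of 16 tested were higher and 1 lower, and the higher count was 2 without IP 1. The steroid-induced factor genes Eip93F (1.27 ± 0.20, edgeR adjusted p = 1.21e-08) and Eip74EF (1.18 ± 0.21, edgeR adjusted p = 5.34e-07) were higher and ImpE2 (-1.24 ± 0.19, edgeR adjusted p = 9.33e-10) was lower. With the length correction Eip93F was not called (adjusted p = 0.0763) and the ratio of Eip74EF was 0.58. Over the ecdysone list, with a median exon length of 6.09 kb, this correction gave 1 higher and 3 lower genes. The list's median was 0.41 before it and -0.02 after it.

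Subunits of the proteasome, which degrades ubiquitin-tagged proteins, were lower almost throughout. Of 27 genes 25 were lower and none higher, with a median of -1.07, and 20 calls were steady. CG17331, now Prosbeta4, a subunit of the catalytic core, stood at 354 and 237 CPM in the inputs and 82.5 and 78.6 CPM in the IPs (-1.85 ± 0.19, edgeR adjusted p = 9.48e-19). The lid subunit genes Rpn3, Rpn7 and Rpn9 had ratios of -1.75 ± 0.19, -1.73 ± 0.19 and -1.56 ± 0.19 (edgeR adjusted p = 4.31e-17, 7.15e-17 and 2.88e-14). Prosbeta3, the most abundant subunit, stood at 566 and 454 CPM in the inputs and 219 and 208 CPM in the IPs (-1.25 ± 0.19, edgeR adjusted p = 6.37e-10). In these 5 genes each IP lay below both inputs. After length correction 25 were again lower and the median was -0.92, so this list moved little with it.

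Nuclear genes of mitochondrial energy production were lower as well. Of 34 tested among 37 respiratory chain genes outside the ATP synthase 26 were lower and none higher, with a median of -1.03, and all 34 ratios were below 0. The cytochrome c oxidase subunit gene levy stood at 452 and 326 CPM in the inputs and 122 and 108 CPM in the IPs (-1.74 ± 0.19, edgeR adjusted p = 1.43e-17), and CG7181, now COX8, at 266 and 173 CPM in the inputs and 56.3 and 36.8 CPM in the IPs (-2.23 ± 0.20, edgeR adjusted p = 3.87e-25). CG12203, now ND-18 of complex I, had -1.84 ± 0.21 (edgeR adjusted p = 2.3e-16), and CG10219, now SdhD of complex II, -1.73 ± 0.20 (edgeR adjusted p = 3.86e-15). The most abundant member, CG3731 (UQCR-C1 of complex III), stood at 438 and 431 CPM in the inputs and 357 and 363 CPM in the IPs (-0.27 ± 0.18, edgeR adjusted p = 0.252) and was not called.

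Of 12 ATP synthase genes 9 were lower and none higher, with a median of -0.81. The stalk subunit gene Oscp stood at 542 and 413 CPM in the inputs and 181 and 152 CPM in the IPs (-1.51 ± 0.19, edgeR adjusted p = 6.7e-14). ATPsyn-d (-1.36 ± 0.19, edgeR adjusted p = 1.95e-11), ATPsynG by its current name (-1.33 ± 0.19, edgeR adjusted p = 7.35e-11) and l(1)G0230 (-1.08 ± 0.19, edgeR adjusted p = 1.48e-07) were lower too, and 16.9% of the exon length of ATPsynG overlapped another gene. CG1746, the abundant gene for the membrane ring subunit, stood at 5286 and 4752 CPM in the inputs and 4922 and 6220.2 CPM in the IPs (0.14 ± 0.20, edgeR adjusted p = 0.623), with a ratio of -0.04 without IP 2.

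Of 71 tested among 72 mitochondrial ribosomal protein genes 59 were lower and none higher, with a median of -0.93, and 69 ratios were below 0. The genes mRpL41 and mRpL34 stood at 53.5 and 40.8 CPM in the inputs and 9.699 and 11.8 CPM in the IPs, and at 58.8 and 40.9 CPM in the inputs and 12.6 and 10.7 CPM in the IPs (-2.12 ± 0.28 and -2.08 ± 0.27, edgeR adjusted p = 1.67e-12 and 1.81e-12). The small subunit genes mRpS21 (-1.73 ± 0.23, edgeR adjusted p = 6.76e-12) and mRpS25 (-1.68 ± 0.23, edgeR adjusted p = 2.17e-11) were lower, and mRpS5, the most abundant, stood at 204.9 and 225 CPM in the inputs and 219 and 295 CPM in the IPs (0.24 ± 0.18, edgeR adjusted p = 0.32). These genes are short, with a median exon length of 0.744 kb. The correction for length left 38 lower, and the count was 37 without IP 1 and 35 without input 1.

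Spliceosome proteins had 17 of 24 genes lower and none higher, with a median of -0.91, and 16 lower after the length correction. The core Sm protein gene SmB stood at 292 and 201 CPM in the inputs and 73.9 and 73.5 CPM in the IPs (-1.72 ± 0.20, edgeR adjusted p = 3.68e-16), and SmF at 421 and 305 CPM in the inputs and 154 and 139 CPM in the IPs (-1.29 ± 0.19, edgeR adjusted p = 2.67e-10). Prp19, a ubiquitin ligase of the spliceosome, had -1.61 ± 0.20 (edgeR adjusted p = 1.77e-13), and snf, a protein of the U1 and U2 particles, -1.26 ± 0.19 (edgeR adjusted p = 7.58e-10). The splicing regulator gene B52, the most abundant, stood at 1755 and 1512 CPM in the inputs and 787 and 957 CPM in the IPs (-0.91 ± 0.19, edgeR adjusted p = 1.93e-05). In all of these the groups were apart. Without IP 2 the list had 1 higher gene.

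Part of the genes of DNA replication and of cell division were lower. Of 28 tested among 29 replication genes 15 were lower and none higher, with a median of -0.62, and the count was 8 without IP 1 and 9 without input 1. The single-strand binding protein gene RPA2 stood at 135 and 127 CPM in the inputs and 47.4 and 49.6 CPM in the IPs (-1.43 ± 0.20, edgeR adjusted p = 9.84e-11), and the helicase subunit gene Mcm2 at 119.8 and 146 CPM in the inputs and 54.6 and 74.5 CPM in the IPs (-1.05 ± 0.20, edgeR adjusted p = 2.15e-06). The origin recognition gene Orc6 had -1.61 ± 0.32 (edgeR adjusted p = 8.4e-06) and the clamp loader gene RfC38 -1.01 ± 0.24 (edgeR adjusted p = 0.000204), where 25.3% of the exon length of RfC38 overlapped another gene. The helicase subunit gene dpa, the most abundant, had -0.75 ± 0.19 (edgeR adjusted p = 0.00059) and was not called without IP 1 (adjusted p = 0.112). The length correction left 14 lower.

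Of 31 cell cycle genes 12 were lower and 2 higher, with a median of -0.31. The mitotic kinase gene cdc2 stood at 143 and 131 CPM in the inputs and 63.2 and 59.6 CPM in the IPs (-1.16 ± 0.20, edgeR adjusted p = 1.7e-07). The Aurora B kinase gene ial (-1.09 ± 0.19, edgeR adjusted p = 2.53e-07), its partner gene borr (-1.13 ± 0.21, edgeR adjusted p = 1.5e-06) and the spindle checkpoint gene Bub3 (-1.20 ± 0.20, edgeR adjusted p = 3.46e-08) were lower. The steady higher call was stg, the Cdc25 phosphatase gene that triggers mitosis, at 198 and 232 CPM in the inputs and 393 and 430.4 CPM in the IPs (0.94 ± 0.18, edgeR adjusted p = 4.61e-06). It had no overlap between groups and a length-corrected ratio of 0.87. E2f stood at 264 and 307 CPM in the inputs and 367 and 361 CPM in the IPs (0.35 ± 0.18, edgeR adjusted p = 0.121) and passed as higher with upper-quartile factors (adjusted p = 0.0325), among genes of at least 10 CPM (0.0282) and with run L1 alone (0.0414). The count of lower cell cycle genes was 7 without IP 1 and 7 without IP 2, and 1 was higher without IP 2. In bulk RNA fewer cells of a type and less of its RNA per cell cannot be told apart.

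The machinery of translation itself differed little. Of 81 tested among 84 cytosolic ribosomal protein genes 8 were higher and 6 lower, with a median of 0.12. Besides RpLP0, RpL23A stood at 4643 and 4252 CPM in the inputs and 6329 and 6787 CPM in the IPs (0.56 ± 0.20, edgeR adjusted p = 0.0174) and was not called without IP 1 (adjusted p = 0.117) or IP 2 (0.192). RpS15Ab, a diverged copy of RpS15A, was lower (-1.38 ± 0.21, edgeR adjusted p = 9.51e-10), and 23% of its exon length overlapped another gene. These counts moved with single libraries: higher genes numbered 5 without IP 1, 1 without IP 2 and 28 without input 1, and lower genes 1 without IP 1, 2 without input 1 and 11 without input 2. The length correction gave 33 higher and 4 lower and a median of 0.42, so the split between higher and lower calls of this list changed with the processing.

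Of 27 translation factor genes 2 were higher and 4 lower, with a median of -0.04. The initiation factor gene eIF6 stood at 72.9 and 70.3 CPM in the inputs and 39.9 and 36.1 CPM in the IPs (-0.92 ± 0.22, edgeR adjusted p = 0.000245). The most abundant messenger RNA of the inputs, Ef1alpha48D, stood at 28215 and 28650.4 CPM in the inputs and 23990.4 and 28389 CPM in the IPs (-0.12 ± 0.21, edgeR adjusted p = 0.692), where IP 1 was low and IP 2 level with the inputs. With upper-quartile factors its ratio was 0.01. The higher count was 1 without IP 1 and 1 without IP 2, and the lower count 2 without IP 1 and 1 without IP 2. Of 18 aminoacyl-tRNA synthetase genes, which load transfer RNAs, 6 were lower and none higher, and the count was 2 without IP 1 and 2 without IP 2. The threonyl enzyme gene Aats-thr stood at 348 and 377 CPM in the inputs and 191 and 198 CPM in the IPs (-0.90 ± 0.18, edgeR adjusted p = 1.32e-05).

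Genes of glycolysis and stress response were lower where they were called, beside 14.8% higher and 18.7% lower among all genes tested. Of 12 glycolysis genes 6 were lower and none higher, and the count was 2 without IP 1. Pglym78 stood at 541 and 522 CPM in the inputs and 204 and 213 CPM in the IPs (-1.35 ± 0.19, edgeR adjusted p = 2.23e-11) and Tpi at 949.9 and 787 CPM in the inputs and 366 and 425 CPM in the IPs (-1.13 ± 0.19, edgeR adjusted p = 4.05e-08), while the aldolase gene Ald stood at 2512 and 2810.3 CPM in the inputs and 2065 and 2595 CPM in the IPs (-0.20 ± 0.19, edgeR adjusted p = 0.451). Of 20 tested chaperonin and heat shock genes 5 were lower and none higher, while 1 was higher without input 1 and 2 without input 2. Hsp23 (-1.38 ± 0.19, edgeR adjusted p = 1.11e-11), Hop (-1.16 ± 0.18, edgeR adjusted p = 1.17e-08) and Hsp26 (-1.06 ± 0.19, edgeR adjusted p = 3.07e-07) stood beside Hsp27. The chaperone gene Hsp83 stood at 3909 and 5787 CPM in the inputs and 4955 and 5971 CPM in the IPs (0.19 ± 0.20, edgeR adjusted p = 0.48), where input 1 was the low value. It was called higher without input 2 (0.46, adjusted p = 0.00575), and its ratio was -0.04 without input 1.

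The vacuolar proton pump had 3 of 18 genes higher and 3 lower, close to the shares of all genes tested. These shares, 14.8% higher and 18.7% lower, stand beside each count of this paragraph. Its membrane ring gene Vha16 stood at 1232 and 1217 CPM in the inputs and 2253 and 2365 CPM in the IPs (0.92 ± 0.19, edgeR adjusted p = 1.93e-05), and the shorter subunit genes Vha13 (-1.05 ± 0.19, edgeR adjusted p = 3.76e-07) and Vha14 (-0.93 ± 0.19, edgeR adjusted p = 1.55e-05) were lower. The higher count was 1 without IP 1 and 1 without IP 2. Of 20 tested genes of the secretory translocon and endoplasmic reticulum 5 were lower and none higher, and the count was 2 without IP 2 and 2 without input 1. Sec61beta had -0.95 ± 0.18 (edgeR adjusted p = 3.37e-06) and the signal recognition gene Srp68 -0.95 ± 0.21 (edgeR adjusted p = 6.21e-05). Of 16 tested glutathione S-transferase genes 5 were lower and 1 higher. GstD1 stood at 1447 and 1115 CPM in the inputs and 494 and 439 CPM in the IPs (-1.45 ± 0.19, edgeR adjusted p = 2.08e-12). The lower count was 2 without IP 1, 2 without IP 2, 3 without input 1 and 2 without input 2, and the higher call held without input 1 alone. Of 13 apoptosis genes 3 were lower and 3 higher. The lower ones included the caspase genes Ice (-1.37 ± 0.20, edgeR adjusted p = 9.42e-10) and Dcp-1 (-1.05 ± 0.21, edgeR adjusted p = 6.34e-06), and the higher count was 0 without IP 1, 1 without IP 2 and 1 without input 2.

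Chromatin regulators were called in both directions. Of 29 genes 9 were higher and 9 lower, with a median of -0.08. The remodeler gene kis stood at 512 and 502 CPM in the inputs and 1445 and 969.8 CPM in the IPs (1.22 ± 0.19, edgeR adjusted p = 3.58e-09), and the cohesin loader gene Nipped-B at 121 and 141 CPM in the inputs and 339 and 297 CPM in the IPs (1.28 ± 0.19, edgeR adjusted p = 5.35e-10). Nipped-A (1.32 ± 0.19, edgeR adjusted p = 2.67e-10) and the SWI/SNF gene osa (1.18 ± 0.19, edgeR adjusted p = 6.5e-09) were higher too. The small heterochromatin protein gene HP1c stood at 143 and 109.7 CPM in the inputs and 34.6 and 39.1 CPM in the IPs (-1.76 ± 0.21, edgeR adjusted p = 4.27e-15), with 16.5% of its exon length in overlap with another gene. The Polycomb methyltransferase gene E(z) stood at 92.4 and 111 CPM in the inputs and 34.9 and 36.9 CPM in the IPs (-1.50 ± 0.21, edgeR adjusted p = 9.34e-11). HP1b (-1.43 ± 0.20, edgeR adjusted p = 1.13e-10) and Snr1 (-1.26 ± 0.19, edgeR adjusted p = 1.95e-09) were lower too. The 9 higher genes had exons of 6704 to 18944 bases and the 9 lower ones of 978 to 3984 bases, and the 11 genes not called lay at 1725 to 7740 bases. With the length correction 1 gene was higher and 11 were lower: Nipped-B was still called (0.79, adjusted p = 0.000306), while kis (-0.15), Nipped-A (0.37) and osa (0.33) were not. The higher count was 5 without IP 1 and the lower count 5 without IP 1 and 5 without IP 2.

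Noncoding RNAs were mostly higher in the IP. Of 26 tested among 48 unnamed CR genes 17 were higher and 1 lower, with a median of 1.28. The higher count was 10 without IP 2, and the lower call held without input 2 alone. Those named were the hairpin RNA gene CR32207 at 49.8 and 57.9 CPM in the inputs and 138 and 179 CPM in the IPs (1.55 ± 0.20, edgeR adjusted p = 1.15e-12), CR31044 (1.51 ± 0.20, edgeR adjusted p = 5.26e-12), CR32028 (1.38 ± 0.19, edgeR adjusted p = 7.92e-12) and CR33328 (1.39 ± 0.19, edgeR adjusted p = 1.03e-11). The most abundant, CR42862, had 0.71 ± 0.19 (edgeR adjusted p = 0.00109) and was not called without IP 2 (adjusted p = 0.174) or with the length correction (0.142). By the current annotation 21 of 38 long noncoding RNA genes were higher and 2 lower, with a median of 0.95, and 12 were higher without IP 2 and 10 steadily so.

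The RNAs roX1 and roX2, which assemble with the dosage compensation complex on the X chromosome of males, were both higher. The former stood at 1109.6 and 1064 CPM in the inputs and 3847 and 3331 CPM in the IPs (1.72 ± 0.20, edgeR adjusted p = 4.92e-16), and the latter at 154 and 133 CPM in the inputs and 492 and 423 CPM in the IPs (1.67 ± 0.19, edgeR adjusted p = 8.74e-17). Their groups were far apart, with both preparations alike. The stress-responsive nuclear RNA Hsromega stood at 603 and 724 CPM in the inputs and 2699 and 2271 CPM in the IPs (1.91 ± 0.20, edgeR adjusted p = 1.4e-19), with a length-corrected ratio of 0.82, and pncr002:3R, named after its values were seen, at 823 and 736 CPM in the inputs and 2195 and 2523 CPM in the IPs (1.60 ± 0.19, edgeR adjusted p = 2.61e-14). Per kb of exon the highest level in the IPs was that of noe, at 42922 CPM per kb, against 16198 in the inputs. The next was Ef1alpha48D at 12198, against 13243 in the inputs.

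Small nuclear and nucleolar RNAs were mostly below the count filter, and 29 of 280 genes were tested. Of these 8 were higher and none lower, and the count was 3 without IP 1 and 5 without IP 2. Members that passed the filter through the IPs alone had to differ, so the count says little of the class. The gene snoRNA:MeU5-C46 stood at 11.95 and 6.29 CPM in the inputs and 49.2 and 28.5 CPM in the IPs (2.11 ± 0.29, edgeR adjusted p = 2.44e-11), and snoRNA:Or-aca5 at 0 and 0.999 CPM in the inputs and 8.59 and 6.47 CPM in the IPs (3.98 ± 0.86, edgeR adjusted p = 3.38e-05). The most abundant, snoRNA:Psi18S-531, stood at 44.2 and 42.5 CPM in the inputs and 75.1 and 88.6 CPM in the IPs (0.91 ± 0.21, edgeR adjusted p = 0.000152). It was not called without IP 2 (adjusted p = 0.0576), and its length-corrected ratio was -0.01. The ratio of snoRNA:Or-aca5 was 2.94 without input 1 and 8.92 without input 2, where the input left is at 0.

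Markers of other cell types were set beside these results. Muscle genes, whose tissue is not part of the brain, had 13 of 17 tested genes higher and none lower, with a median of 1.30. The myosin heavy chain gene Mhc stood at 29 and 14.98 CPM in the inputs and 159 and 61.1 CPM in the IPs (2.25 ± 0.22, edgeR adjusted p = 4.1e-21), and the myosin light chain gene Mlc1 at 76.9 and 39.1 CPM in the inputs and 174 and 111 CPM in the IPs (1.34 ± 0.20, edgeR adjusted p = 9.96e-10). The giant sarcomere genes bt and sls stood at 19.5 and 15.3 CPM in the inputs and 301 and 118 CPM in the IPs, and at 26.3 and 29.6 CPM in the inputs and 422 and 185 CPM in the IPs (3.45 ± 0.22 and 3.32 ± 0.21, edgeR adjusted p = 2.22e-50 and 2.22e-50). In each of these preparation 1 gave the highest IP value, and in all but sls also the higher input value. Without IP 1 the ratios of Mhc, bt and sls were 1.46, 2.75 and 2.71. That of Mhc was 2.84 without IP 2 and 2.92 without input 1, and that of bt 4.10 without IP 2. The length correction left 1.70 for bt and 0.75 for sls. The list's count was 6 without IP 1.

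Over the whole muscle list the length correction left 12 of 17 tested genes higher and 1 lower, with a median of 1.12. The lower one was Tm1, the most abundant marker (-0.93, edgeR adjusted p = 9.54e-06). Summed over the 19 muscle markers the level was 1257 and 823 CPM in the inputs and 2620 and 1504 CPM in the IPs, so both IPs exceeded both inputs. The other lists were set beside it. The 15 glia markers summed to 1726 and 1911 CPM in the inputs and 1737 and 1930.1 CPM in the IPs, and the 10 hemocyte markers to 382 and 412 CPM in the inputs and 430.0 and 443 CPM in the IPs. The 10 neuron markers summed to 1573 and 1825 CPM in the inputs and 2151 and 2448 CPM in the IPs. The 10 T4/T5 identity factors, ato included, summed to 503 and 463 CPM in the inputs and 718 and 601 CPM in the IPs. Photoreceptor markers summed to 261 and 294 CPM in the inputs and 417 and 386 CPM in the IPs, and mushroom body markers to 1094 and 1156 CPM in the inputs and 2418 and 2398 CPM in the IPs. In these sums toy alone made 51.9% of the photoreceptor level and mbl 50.3% of the mushroom body level. The part of muscle or other cells in the gene groups above was not tested.

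**Figure D4:**
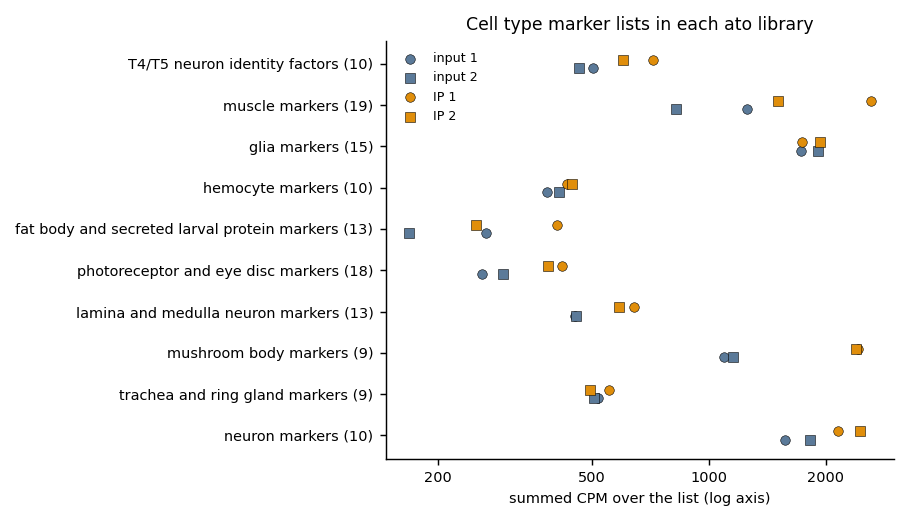
Summed CPM on a log axis of each cell type marker list (number of genes in brackets) in the 4 libraries, inputs in blue and IPs in orange, circles for preparation 1 and squares for preparation 2. Muscle markers run from 823 to 2620 CPM with both IPs above both inputs, and glia markers stay between 1726 and 1930.1.

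Single markers differed within a list, and of all genes tested 14.8% were higher and 18.7% lower. The glial master regulator gene repo, named after its values were seen, stood at 81.3 and 80.1 CPM in the inputs and 49.97 and 42.4 CPM in the IPs (-0.81 ± 0.21, edgeR adjusted p = 0.000872) and was not called without IP 2 (adjusted p = 0.105). The glial gene wrapper was also named after its values were seen. It stood at 88.1 and 55.02 CPM in the inputs and 32.5 and 35.3 CPM in the IPs (-1.04 ± 0.22, edgeR adjusted p = 3.89e-05). Without input 1 its ratio was -0.65 and it was not called. Of all 15 glia markers 2 were higher and 3 lower, where the higher count was 1 without IP 1, 0 without IP 2 and 1 without input 1 and the lower count 1 without IP 2. The glia markers moody and Gli, also named after their values were seen, had both IPs above both inputs. Values of moody were 21.9 and 34.95 CPM in the inputs and 42.6 and 52.6 CPM in the IPs. Those of Gli were 24.6 and 11.98 CPM in the inputs and 32.3 and 31.1 CPM in the IPs. The sum of the glia list was nearly level between inputs and IPs, as given above. The sodium pump subunit gene nrv2 stood at 412 and 499.7 CPM in the inputs and 488 and 653 CPM in the IPs (0.32 ± 0.18, edgeR adjusted p = 0.177) and passed as higher among genes of at least 10 CPM (adjusted p = 0.0492).

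Among photoreceptor and eye disc markers 4 of 13 tested were higher and none lower. The phospholipase gene norpA stood at 24.9 and 26.36 CPM in the inputs and 77.2 and 56.8 CPM in the IPs (1.37 ± 0.24, edgeR adjusted p = 1.35e-07) and the receptor gene sev at 8.59 and 14.98 CPM in the inputs and 29.6 and 28.98 CPM in the IPs (1.35 ± 0.29, edgeR adjusted p = 4.7e-05). The latter was not called with the length correction (adjusted p = 0.0769). The rhodopsin gene ninaE and the histamine receptor gene ort had no count in the inputs, and the arrestin gene Arr1 none in any library. Mushroom body markers had 6 of 9 higher, and the count was 1 without IP 1. The highest ratio was that of mbl, a splicing factor gene that is not specific to these neurons, at 376 and 409 CPM in the inputs and 1329.9 and 1438 CPM in the IPs (1.82 ± 0.19, edgeR adjusted p = 9.64e-19, length-corrected 0.80). Of 12 tested lamina and medulla neuron markers 3 were higher, and the count was 1 without IP 1. Among them the POU factor gene vvl stood at 57.01 and 63.9 CPM in the inputs and 159.6 and 116 CPM in the IPs (1.17 ± 0.20, edgeR adjusted p = 1.19e-07). Of the 10 hemocyte markers 1 was higher, and that call ended without IP 1, while 2 were higher without input 2. Fat body and larval serum markers had 4 of 8 tested higher. The count was 1 without IP 1 and 1 without input 2, and 1 was lower without IP 1. Of 9 trachea and ring gland markers 1 was higher and 1 lower, and the higher count was 0 without IP 1 and 2 without input 2. The peptide hormone gene Akh of the ring gland was lower, at 81.04 and 56.1 CPM in the inputs and 34.4 and 29.2 CPM in the IPs (-1.09 ± 0.23, edgeR adjusted p = 1.84e-05).

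The ratio of IP over input rose with the length of a gene's exons. In the sixth of genes with the shortest exons, of 72 to 1006 bases, the median log2 ratio was -0.46, and 116 of 1601 genes were higher and 598 lower. In the sixth with the longest, of 4065 to 69439 bases, the median was 0.48, and 659 of 1601 were higher and 27 lower. The rank correlation of ratio and exon length was 0.372 over the 9602 genes, 0.436 in preparation 1 and 0.263 in preparation 2. It was 0.613 over the 3654 genes with a mean of at least 50 CPM. These points share the libraries. The labels give sonication for the ribosome-bound RNA and do not state it for the inputs, and its part in this trend was not tested.

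**Figure D5:**
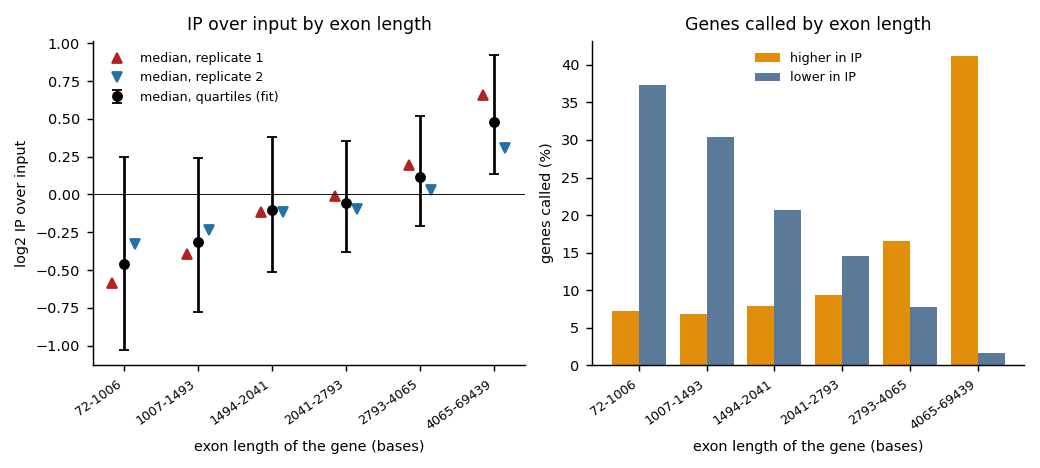
Left, median log2 ratio of IP over input in 6 bins of exon length, from the paired fit (black, bars from the lower to the upper quartile) and in each preparation (triangles). Right, percent of genes called higher (orange) and lower (blue) in each bin. The median climbs from -0.46 in the first bin to 0.48 in the last. The percent called higher is 7.25 in the first and 41.2 in the last, and the percent called lower drops from 37.4 to 1.69.

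The longest genes showed this most. Msp-300, with 67.4 kb of exons, stood at 328 and 413 CPM in the inputs and 3486 and 1958 CPM in the IPs (2.83 ± 0.21, edgeR adjusted p = 3.55e-39), and its length-corrected ratio was 0.01 (adjusted p = 0.983). The cytoskeletal linker gene shot stood at 99.7 and 138 CPM in the inputs and 1028 and 548 CPM in the IPs (2.68 ± 0.20, edgeR adjusted p = 1.75e-37) and kept a ratio of 0.83 (adjusted p = 0.000172). The beta heavy spectrin gene kst stood at 34.6 and 29.2 CPM in the inputs and 184 and 125 CPM in the IPs (2.25 ± 0.21, edgeR adjusted p = 5.9e-24), with a corrected ratio of 1.15. The dynein heavy chain gene Dhc64C stood at 50.4 and 59.7 CPM in the inputs and 208 and 123 CPM in the IPs (1.54 ± 0.20, edgeR adjusted p = 2.19e-12) and was not called after the correction (adjusted p = 0.1). For each of them the groups were apart, and IP 1 was above IP 2. Of 19 genes for large cytoskeletal and motor proteins 11 were higher and 1 lower, and 2 higher and 4 lower after correction. The uncorrected higher count was 5 without IP 1, and the lower call ended without IP 1 or input 2.

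Chromosomes differed as well. On chromosome 4, the small and largely heterochromatic autosome, 34 of 80 tested genes were higher and 6 lower, with a median of 0.51. Their exons were long, with a median of 3489 bases, and after the length correction 21 were higher and 7 lower, with a median of 0.25. Without IP 1 15 of them were higher, and without IP 2 20. On the X chromosome 301 of 1638 genes were higher and 227 lower, with a median of 0.10, and 103 were higher without IP 1 and 169 without IP 2. On the arms of the other autosomes 12.1% to 15.3% of genes were higher and 19.4% to 20.5% lower.

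Preparations 1 and 2 disagreed on single genes. In preparation 1 the ratio of the long genes was larger: dp, a giant extracellular matrix gene, stood at 38.1 and 36.4 CPM in the inputs and 346 and 128 CPM in the IPs (2.50 ± 0.21, edgeR adjusted p = 8.91e-30), and futsch, the microtubule-associated neuron marker, at 31.6 and 42.1 CPM in the inputs and 118 and 65.4 CPM in the IPs (1.26 ± 0.22, edgeR adjusted p = 1.52e-07). The call of futsch ended without IP 1 (adjusted p = 0.0578). The ratio of dp was 1.76 without IP 1 and 3.20 without IP 2. After the length correction dp had -0.35 and futsch -0.14, and neither was called. The casein kinase gene dco stood at 76.2 and 96.7 CPM in the inputs and 75.9 and 285 CPM in the IPs (0.80 ± 0.20, edgeR adjusted p = 0.000482), so that IP 2 alone was high. Without IP 2 its ratio was -0.20, without IP 1 1.70, and the DESeq2 Wald test did not call it (adjusted p = 0.464). RpL22 stood at 899 and 698 CPM in the inputs and 310.2 and 664 CPM in the IPs (-0.80 ± 0.19, edgeR adjusted p = 0.000218), so that IP 1 alone was low, and 34% of its exon length overlapped another gene. Without IP 1 its ratio was -0.28 (adjusted p = 0.566), without input 1 its adjusted p was 0.0591, and with the DESeq2 Wald test 0.492. These 4 genes were named after their values were seen.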

How the data were processed

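The deposited values are read counts per gene for each sequencing run, which the authors made with featureCounts on build dm3, per the file headers. The headers show counting over exons with a mapping quality of at least 5 and no option for strand, read pairs, multiply mapped reads or overlapping genes, so reads of antisense partners cannot be told apart. Reads were aligned with TopHat2 2.0.12 and counted with featureCounts 1.4.4, per the submitters' processing notes. The 4 runs of a library were summed. The chi-square per degree of freedom between them was 1.78 to 1.87, above the value of 1 for counting noise alone.

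Genes were filtered with filterByExpr, scaled by TMM factors and tested with edgeR 4.0.16 (R 4.3.3) by the quasi-likelihood F test on IP against input, with the preparation as a block. P-values were adjusted by the Benjamini-Hochberg method over the 9602 genes, with a threshold of 0.05. Each gene had 1 residual degree of freedom, and the fit took the same spread for all genes at a given level. The common biological coefficient of variation was 0.174. IP and input of a number came from the same homogenate, per the labels' protocols, and their deviations from the group means correlated at 0.223. CPM used the TMM-scaled totals, and per-preparation ratios used CPM plus 0.5. The length correction offset the IP libraries by a loess trend (span 0.5) of the ratio on log2 exon length. DESeq2 1.42.0 and limma 3.58.1 gave alternatives, and Python 3.11.15, pandas 2.3.3, numpy 2.4.6 and matplotlib 3.10.9 the summaries and figures. The fit was tested on simulated data, where more of its calls were false than the threshold sets and smaller changes were mostly missed.

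Genes were named by rule: among steady calls whose higher group averaged 10 CPM or more, the 10 largest ratios each way; the 5 smallest p and the 5 largest CPM differences each way; up to 4 steady calls each way and the most abundant member of each of 45 lists; all T4/T5 factors, ato and RpL10Ab. Others are marked as named after their values were seen. The comparison and the lists were chosen with earlier results of these data known.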

Additional observations from a re-analysis of the deposited data

How the results depend on the processing

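The alternatives were no replicate block, other scaling factors, tests and count filters, run L1 alone, the length correction and each library left out. The fits with a library left out had no replicate block either. Of 2723 values of 211 genes, 2614 kept their direction and their side of the threshold, 72 lost the call and 21 gained one. The fit with no replicate block called 1230 higher and 1543 lower genes, so pairing moved neither count by over 1.5 times. Lower genes numbered 1146 with the DESeq2 Wald test and 1180 with run L1 alone. Leaving out 1 library gave 550 to 1173 higher and 1014 to 1567 lower genes. The direction reversed for 16 values, whose cause was not tested. Leaving out 1 library at a time, the range was -0.0167 to 0.563 for dpr7 and -0.0430 to 0.292 for CG1746, lowest without IP 2 and highest without IP 1. It was -0.204 to 1.70 for dco, in the same order. For crq it was -0.0248 to 0.248 and for sad -0.0253 to 0.175, lowest without IP 1. For Hsp83 it was -0.0361 to 0.460, for Crc -0.306 to 0.00630 and for Tm1 -0.470 to 0.0169, each reversed without input 1. With upper-quartile factors Ef1alpha48D had 0.00787. With the length correction the reversed values were ci (-0.00479), kis (-0.15), crol (-0.23), Rfabg (-0.10), snoRNA:Psi18S-531 (-0.0113), dp (-0.35) and futsch (-0.14). With 2 libraries per group a two-sided exact permutation test of 1 gene cannot go below 0.33, so each call rests on the spread shared between genes.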

Other observations

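Further gene families, chosen after their values were seen, are given here by count and value. Part of the subunits of the machinery that transcribes genes were lower in the IP. Of 11 RNA polymerase II subunit genes 8 were lower and none higher, with a median log2 ratio of -0.96 and of -0.64 after the length correction, and Rpb11 stood at 195 and 151 CPM in the inputs and 57.9 and 69.8 CPM in the IPs (-1.43 ± 0.20, edgeR adjusted p = 4.04e-11). Mediator, the complex that links transcription factors to the polymerase, had 12 of 23 tested subunit genes lower and 1 higher, with a median of -0.67 and 7 lower genes without IP 1. MED15 stood at 167 and 172 CPM in the inputs and 54.02 and 67.8 CPM in the IPs (-1.49 ± 0.20, edgeR adjusted p = 6.86e-12), and the higher one, MED26, at 241 and 308 CPM in the inputs and 469 and 466 CPM in the IPs (0.78 ± 0.18, edgeR adjusted p = 0.000183). The COP9 signalosome, which regulates ubiquitin ligases, had 6 of 7 tested genes lower, with 4 lower without IP 2, and CSN6 stood at 175 and 168 CPM in the inputs and 56.96 and 47.6 CPM in the IPs (-1.72 ± 0.20, edgeR adjusted p = 2.8e-15). In these named genes the groups did not overlap.

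Chemoreceptor genes were near the detection limit, where lower calls were hardly possible: in the sixth of genes with the lowest mean level 20.3% were higher and 0.25% lower. Of 14 tested among 61 gustatory receptor genes 7 were higher and none lower, and the highest mean level was 4.18 CPM. The higher count was 3 without IP 1, 3 without IP 2 and 4 without input 1. Gr39b stood at 0.124 and 0.2 CPM in the inputs and 5.16 and 7.09 CPM in the IPs (5.12 ± 1.11, edgeR adjusted p = 4.2e-05), and Gr9a at 0.124 and 0.3 CPM in the inputs and 5.40 and 6.09 CPM in the IPs (4.67 ± 1.10, edgeR adjusted p = 0.000189), whose ratio was 5.34 without input 2. Of 11 tested among 59 ionotropic receptor genes 5 were higher, and 1 without IP 1, 1 without IP 2 and 2 without input 1. Genes at this level passed the filter mostly through the IPs, so the direction is no result about these families. Among the dynein heavy chain genes of cilia and sperm tails, kl-2 had no input count and 25 and 28 counts in the IPs. This is at least 19.7-fold higher against 3 counts over the inputs. The gene kl-2 was among the 77 genes that passed the filter through the IPs alone, so its direction was fixed beforehand. The snoRNA host gene Uhg5 stood at 18.3 and 22.3 CPM in the inputs and 38.7 and 47.9 CPM in the IPs (1.09 ± 0.26, edgeR adjusted p = 0.000189). On the heterochromatic scaffolds 19 of 54 tested genes were higher and 8 lower, and 11 were higher without IP 1 and 12 without IP 2, while 5 were lower without IP 1 and 5 without input 1. Among them uex, a magnesium transporter gene, stood at 90 and 95.1 CPM in the inputs and 228 and 182 CPM in the IPs (1.14 ± 0.19, edgeR adjusted p = 9.11e-08), and CG17684 at 8.71 and 8.99 CPM in the inputs and 28.11 and 32.1 CPM in the IPs (1.76 ± 0.30, edgeR adjusted p = 1.46e-07).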
